A study of Mus musculus with 10 samples.

Results

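The length of the labelling pulse was compared in cultured mouse cortical neurons: the synthesis rate of each gene estimated from 60 min of labelling was set against the rate estimated from 20 min, within wild-type neurons and within Fmr1-KO neurons. The rate table held 8590 genes, of which 5774 had a synthesis rate in all 4 labelled libraries that was finite, above 0 and under 1000, and these were compared. Of the rest, 2778 lacked at least 1 synthesis rate, 2102 of them with both wild-type rates listed and a knockout rate missing, and 38 more were left out for a rate of 0 or a rate of 1000 or above. The highest rate kept was 341 and the lowest rate at or above the limit was 6751, so no gene lay close to it. Fmr1 encodes FMRP, the RNA-binding protein lost in fragile X syndrome. All groups shared the strain FVB.129P2-Pde6b+ Tyrc-ch/AntJ, cortices of embryonic day 18, 14 days in culture and spike-ins of 5-ethynyluridine (5-EU) labelled fly RNA and unlabelled yeast RNA, each 10% by weight. Labelled neurons received 200 µM 5-EU, and their new RNA was pulled down through biotin after fragmentation and removal of ribosomal RNA. The 10 samples of the study comprised 1 wild-type and 1 Fmr1-KO library at each of the 2 labelling times, and 2 input libraries and 1 unlabelled pull-down per genotype, from which only the rates are used here.

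5-EU is a uridine analogue that RNA polymerases build into growing transcripts, so that RNA made during the pulse can be separated from RNA that was already present. A synthesis rate is the amount of a transcript made per unit of time. A short pulse samples RNA soon after transcription, including precursors and short-lived species, whereas a longer pulse gathers more mature RNA. Where synthesis is steady and the model holds, both pulses estimate the same quantity for a gene.

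Wild-type neurons had a listed synthesis rate for 7938 genes after 20 min and 7969 after 60 min, and Fmr1-KO neurons for 6480 and 6308. Over the genes compared, the median rate of wild-type neurons was 1.13 after 20 min and 1.12 after 60 min, and that of Fmr1-KO neurons 1.18 and 1.07, in the units of the deposited table. In what follows, paired rates are given in the order 20 min, 60 min. Read depth is unknown, since the table holds rates only. Each library was the only one of its genotype and time, so labelling time cannot be told apart from library, pull-down or scaling. The genotypes stood as the 2 pairs, and a p-value here sets the mean ratio against how far the ratios of the 2 genotypes differed, with that spread drawn by limma toward its value over all genes. The pull-downs may come from separate cultures or not, as the labels do not say.

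The synthesis rate of Fmr1 was examined first, as the targeted gene (chromosome X, 68678541 to 68717963, plus strand, GRCm38). It was 0.810 after 20 min and 0.692 after 60 min in wild-type neurons, and 2.06 and 1.56 in Fmr1-KO neurons. The synthesis rate was thus higher in the libraries labelled Fmr1-KO than in wild type at both times, and the genotype names used throughout are those of the labels. Its degradation rate separated the genotypes, at 0.0774 and 0.0672 in wild-type neurons against 2.58 and 2.66 in Fmr1-KO neurons. The log2 ratio of synthesis rate at 60 over 20 min was -0.23 in wild-type neurons and -0.40 in Fmr1-KO neurons, with a mean of -0.31 (SE 0.224, limma adjusted p = 0.325), so Fmr1 was not among the genes called.

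Markers of the labelled cell type were thinly covered. Of 10 neuron markers, 3 were in the rate table and 2 could be compared: Neurod6, a transcription factor of excitatory cortical neurons, at 14.2 and 16.3 in wild-type neurons and 10.2 and 13.1 in Fmr1-KO neurons at 20 and 60 min, and Rbfox3, the splicing regulator known as NeuN. Rbfox3 was lower at 60 min, at 2.77 and 1.24 in wild-type neurons and 2.15 and 0.844 in Fmr1-KO neurons (log2 ratio -1.25, SE 0.225). Of 8 astrocyte markers only Aldh1l1 could be compared, and it was also lower at 60 min, with 2.11 and 1.11 in wild-type neurons and 2.76 and 1.23 in Fmr1-KO neurons (log2 ratio -1.05, SE 0.227). Of 9 markers of the oligodendrocyte lineage only Olig2 could be compared, at 17.96 and 12.6 in wild-type neurons and 20.2 and 13.8 in Fmr1-KO neurons, and it was not called. Of 7 microglia and 4 endothelial markers, 0 were in the rate table.

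Across all genes, labelling for 60 min gave higher synthesis rates for 527 genes (9.13%) and lower rates for 935 (16.2%), by limma with a Benjamini-Hochberg adjusted p under 0.05. In either direction this was 25.3% of the genes, and 2559 had an unadjusted p under 0.05. Rates at least 2-fold apart in both genotypes were higher for 243 genes (4.21%) and lower for 605 (10.5%). The smallest adjusted p was 0.0199, so 0 genes passed at 0.01. The median size of the log2 ratio was 1.15 among higher calls and 1.36 among lower calls. With quantile normalization 366 genes were higher and 500 lower, while leaving out the lowest rates, at or under the 25th percentile, gave 817 and 840, with 50.7% of calls lower against 64.0%. The counts also changed with the libraries used. In a fit without the block, which leaves out 1 library and assumes that the lone sample varies like the others, 853 genes were higher and 1326 lower without the wild-type 20 min library, and 1104 and 1339 without the Fmr1-KO 20 min library. The same fit gave 5 and 83 without the wild-type 60 min library, and 0 in both directions without the Fmr1-KO 60 min library, where 1363 genes had an unadjusted limma p under 0.05. Without a 60 min library the spread comes from the pair of 20 min libraries alone, and all 40 named calls kept their direction without either one. These calls came from the same libraries, and 0 calls had ratios of opposite sign in the genotypes. The kept direction was thus largely set by the choice of genes.

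The genotypes moved together for most genes. Both genotypes were higher at 60 min for 2094 genes and lower for 2455, and the ratios had the same sign for 78.8% of genes. For 777 genes the ratio was above 0 in wild type and below 0 in the knockout, and the reverse held for 448. The median log2 ratio was -0.0058 in wild-type neurons and -0.13 in Fmr1-KO neurons, and the median size of a gene's ratio was 0.63 and 0.59. The 2 genotypes' ratios differed by a median of 0.37 for a gene. Across 5774 genes, Spearman rho was 0.737 between the ratios of the 2 genotypes. Rates of the 2 genotypes ranked genes more alike at 60 min (rho 0.973) than at 20 min (rho 0.883), and both values were above those between the times within wild type (0.757) or the knockout (0.765). Genes share their library in all of these, and they are not independent replicates. The difference between the genotypes in this ratio leaves no residual degree of freedom and was not tested.

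**Figure D1:**
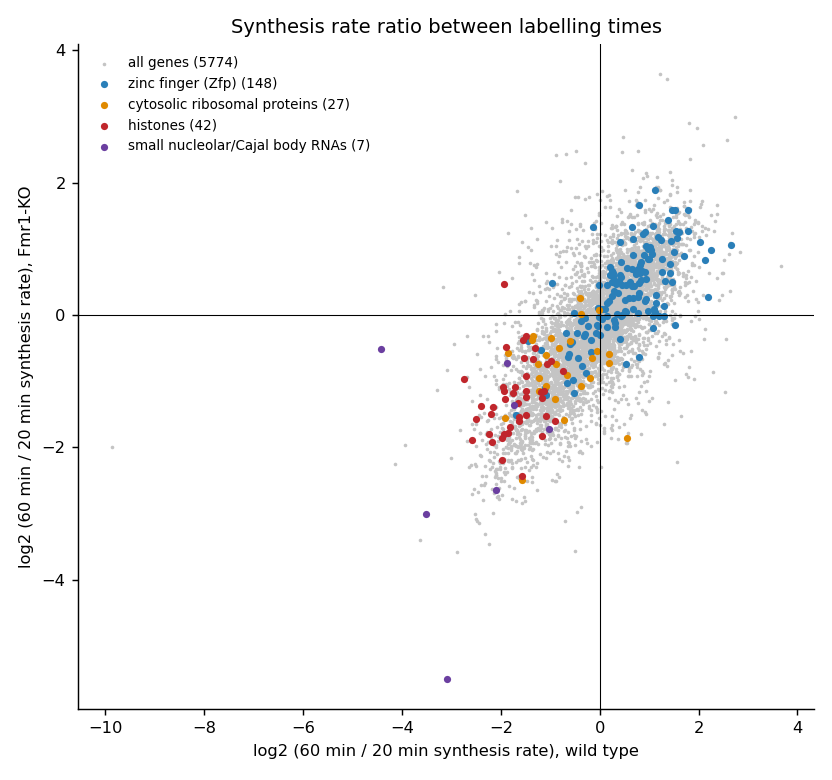
Each point is 1 of 5774 genes, with the log2 ratio of the 60 min over the 20 min synthesis rate in wild type on the x axis and in Fmr1-KO neurons on the y axis. Of 42 histone genes, 41 lie toward the lower left, below 0 in both genotypes, as do all 7 small nucleolar and Cajal body RNA genes, with cytosolic ribosomal protein genes (27) mostly there too and Zfp zinc finger genes (148) mostly toward the upper right.

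Among called genes above the 25th percentile of mean rate, ranked by the smaller of the 2 genotypes' ratios with predicted genes passed over, the highest rise was that of Mylip (chromosome 13, 45389742 to 45412022, plus strand), a ubiquitin ligase that acts on lipoprotein receptors. Its synthesis rate was 2.03 after 20 min and 12.1 after 60 min in wild-type neurons, and 1.38 and 8.62 in Fmr1-KO neurons. Both 60 min libraries lay above both 20 min libraries, at 10.4 ± 2.48 against 1.71 ± 0.461 (SD, n = 2), a 6.10-fold difference (log2 ratio 2.61, SE 0.221, limma adjusted p = 0.0199). Sgk1, a kinase induced by serum and glucocorticoids (chromosome 10, 21882184 to 21999903, plus strand), went from 5.27 to 22.5 in wild-type neurons and from 4.10 to 24.3 in Fmr1-KO neurons, a 5.03-fold difference (log2 ratio 2.33, SE 0.244). The lipid kinase genes Pip5k1a and Pip4k2c, which make phosphatidylinositol bisphosphates, were also among the 12 highest. Pip5k1a had rates of 0.876 and 3.11 in wild-type neurons and 0.682 and 3.51 in Fmr1-KO neurons. Pip4k2c had rates of 0.821 and 3.43 in wild-type neurons and 1.00 and 3.30 in Fmr1-KO neurons. The remaining 8 were the syntrophin gene Sntb2, the hexosamine pathway enzyme gene Gfpt2, the ubiquitin ligase gene Rnf169, the microRNA gene Mir487b, Elmsan1, the histone demethylase gene Kdm5b, the transcription factor gene Rfx7 and Boc, a co-receptor for hedgehog ligands. In all 12, both 60 min libraries lay above both 20 min libraries. The log2 ratio was at least 1.61 in each genotype, which the ranking by the smaller ratio selects for.

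Under the same rule, lower rates at 60 min were led by small RNA genes and by protein-coding genes rich in G and C. Kifc2, a kinesin motor of neurons (chromosome 15, 76659858 to 76668196, plus strand), had rates of 2.61 after 20 min and 0.466 after 60 min in wild-type neurons, and 2.43 and 0.281 in Fmr1-KO neurons. Both 60 min libraries lay below both 20 min libraries, at 0.374 ± 0.131 against 2.52 ± 0.127 (SD, n = 2), which is 6.95-fold lower (log2 ratio -2.80, SE 0.261, limma adjusted p = 0.0199). Ptpn5, the striatal-enriched phosphatase of neurons, had rates of 2.01 and 0.324 in wild-type neurons and 1.25 and 0.253 in Fmr1-KO neurons. Atp13a2, a lysosomal transport ATPase, had rates of 3.70 and 0.700 in wild-type neurons and 2.98 and 0.505 in Fmr1-KO neurons. Begain, a postsynaptic scaffold partner, had rates of 4.46 and 0.826 in wild-type neurons and 3.42 and 0.386 in Fmr1-KO neurons. Fam71e1, the anoctamin gene Ano8 and the nudix hydrolase gene Nudt8 were the other protein-coding genes among the 12 lowest. GC content of the transcript was between 58.4% (Ptpn5) and 63.6% (Ano8) in these 7 genes, and between 43.9% (Rfx7) and 55.9% (Boc) in the 11 protein-coding genes of the 12 highest.

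**Figure D2:**
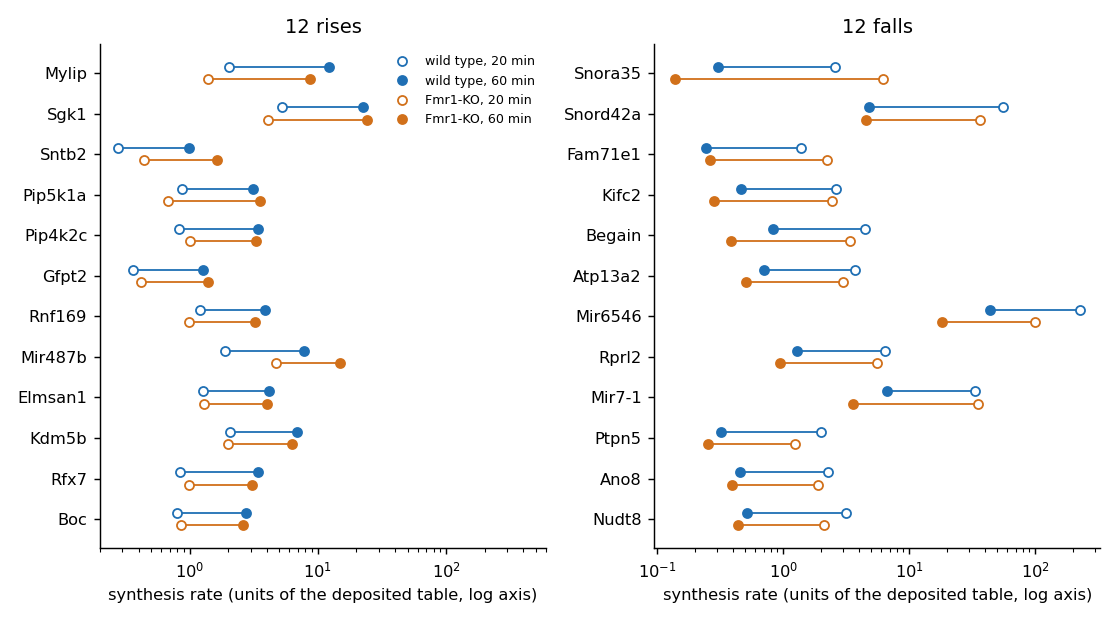
Synthesis rate on a log axis, in units of the deposited table, for the 12 genes with the largest rises (left) and the 12 with the largest falls (right) under the naming rule. Each row joins the 20 min library (open) to the 60 min library (filled), in blue for wild type and orange for Fmr1-KO. Under the naming rule only genes with the same direction in both genotypes were taken.

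Histone genes were mostly lower at 60 min. Canonical histones are the core and linker proteins of chromatin, and most of their messenger RNAs, unlike other messages, end in a conserved stem-loop in place of a poly(A) tail. The stem-loop letters are printed here because they mark this class; capitals are the stem-loop, read from GENCODE M21 transcripts (GRCm38) on the transcript strand by a search for GG, any 2 bases, CTTTT, any base, AG, any 2 bases and CC, and lower case is 4 bases on each side. The annotated transcripts run on past the stem-loop, by 2445 bases in Hist4h4, 330 in Hist1h4i, 37 in Hist1h3a and 840 in Hist1h1c.
Hist4h4: caaaGGCCCTTTTCAGGGCCcaca
Hist1h4i: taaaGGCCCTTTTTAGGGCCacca
Hist1h3a: caaaGGCTCTTTTCAGAGCCacac
Hist1h1c: aaaaGGCTCTTTTCAGAGCCacca
Of 5724 genes matched to GENCODE by symbol, 31 (0.542%) held the motif, and 26 of these were in the histone list. The match is a description of these letters, and 16 of the 42 histone genes had none in the transcript used.

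Of the 42 histone genes compared, 33 were lower at 60 min and 0 were higher, which is 78.6% against 16.2% of all genes. In 41 of 42 both genotypes lay below 0. The exception was Hist1h2af, which was below 0 in wild type (log2 ratio -1.94) and above 0 in the knockout (0.46). The median log2 ratio was -1.64 in wild-type neurons and -1.26 in Fmr1-KO neurons. Across the 42 genes the rate ran from 1.12 through a median of 8.96 to 98.5 at 20 min in wild type, and from 0.414 through 2.61 to 43.5 at 60 min. In the knockout it ran from 0.632 through 6.34 to 62.4 at 20 min, and from 0.529 through 2.58 to 27.9 at 60 min.

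Every class of clustered histone was represented among the lower calls. All 5 linker histone H1 genes and all 4 H3 genes were lower, as were 10 of 12 H2B genes, 7 of 10 H2A genes and 5 of 6 H4 genes. Hist4h4, the histone gene with the highest rate, was at 98.5 and 43.5 in wild-type neurons and 62.4 and 27.9 in Fmr1-KO neurons (log2 ratio -1.17, SE 0.221). Hist1h3a was at 24.2 and 5.34 in wild-type neurons and 13.5 and 3.55 in Fmr1-KO neurons (log2 ratio -2.05, SE 0.228). Hist1h4i was at 34.1 and 6.01 in wild-type neurons and 13.3 and 4.48 in Fmr1-KO neurons (log2 ratio -2.04, SE 0.304). Hist1h1c, a linker histone, was at 19.9 and 5.66 in wild-type neurons and 12.3 and 3.81 in Fmr1-KO neurons (log2 ratio -1.76, SE 0.222). Of 26 genes with the stem-loop in the transcript used 21 were lower, and of 16 without it 12 were lower. In several of those 16, such as Hist2h2bb and Hist1h4k, the annotated 3′ untranslated region is only 3 bases long. A missing motif there does not show that the message lacks a stem-loop. Among the 5 histone genes outside the clusters, H1fx and H1f0 were lower, and H2afj, H3f3a and H2afx were not called. Histone genes are near-identical copies, and how reads shared between copies were assigned is not given in the sources used here, so single histone genes are uncertain.

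Most clustered histone genes have 1 exon, and other genes with 1 exon were described beside them. Of 152 other single-exon protein-coding genes, 11 (7.24%) were lower and 1 (0.658%) was higher, both under the 15.9% and 9.22% of all protein-coding genes. Their median log2 ratio was -0.14 in wild-type neurons and -0.13 in Fmr1-KO neurons.

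Small RNA genes from the annotation showed both directions; these classes were chosen after their values were seen. Small nucleolar RNAs guide chemical modification of ribosomal RNA, and small Cajal body RNAs do so for spliceosomal RNA. All 7 genes of these kinds lay below 0 in both genotypes and 6 (85.7% against 16.2% of all genes) were lower. Capitals mark the boxes that define the families, GATG and CTGA near the ends of box C/D RNAs and ACA near the 3′ end of a box H/ACA RNA, in sequences from GENCODE M21.
Snord42a: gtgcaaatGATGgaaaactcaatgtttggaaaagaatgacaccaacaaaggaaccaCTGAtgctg
Snord93: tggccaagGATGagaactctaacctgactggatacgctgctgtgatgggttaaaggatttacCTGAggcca
Snora35: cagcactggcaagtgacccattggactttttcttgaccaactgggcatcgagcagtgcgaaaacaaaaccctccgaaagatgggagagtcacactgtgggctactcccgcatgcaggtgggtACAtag
GATG within 12 bases of the start with CTGA within 12 bases of the end, on the transcript strand, occurred in 239 of 1198 annotated transcripts of 60 to 80 bases (19.9%).

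Snord42a (chromosome 11, 78181299 to 78181363, minus strand) had rates of 55.1 and 4.81 in wild-type neurons and 36.6 and 4.55 in Fmr1-KO neurons, which is 9.60-fold lower at 60 min (log2 ratio -3.26, SE 0.248). Snord93 had rates of 75.3 and 17.7 in wild-type neurons and 87.1 and 13.9 in Fmr1-KO neurons (log2 ratio -2.37, SE 0.253). Snora35 had rates of 2.58 and 0.303 in wild-type neurons and 6.20 and 0.138 in Fmr1-KO neurons (log2 ratio -4.29, SE 0.580). In all of these, both 60 min libraries lay below both 20 min libraries. Scarna9, Scarna2 and Snora43 were lower as well. Scarna10 was not called, with rates of 10.9 and 0.507 in wild-type neurons and 2.11 and 1.48 in Fmr1-KO neurons. The RNase P-like gene Rprl2 was lower too, at 6.48 and 1.29 in wild-type neurons and 5.51 and 0.947 in Fmr1-KO neurons. Of 60 small RNA genes, 45 lie inside another gene on the same strand, and library inserts were 50 to 200 nt, so reads from a host transcript and from the small RNA cannot be told apart.

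MicroRNA genes were mixed. MicroRNAs are cut from hairpin precursors and repress target messages through pairing of their seed. Of 52 microRNA genes, 10 were lower at 60 min (19.2% against 16.2% of all genes) and 4 higher (7.69% against 9.13%), both near the background. The median log2 ratio was -0.35 in wild-type neurons and -0.61 in Fmr1-KO neurons, and 20 genes had ratios of opposite sign in the 2 genotypes. The mature sequences of the called genes described here are from RefSeq (GRCm38.p6), with the seed, bases 2 to 8, in capitals.
mmu-miR-132-3p: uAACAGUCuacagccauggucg
mmu-miR-7a-5p: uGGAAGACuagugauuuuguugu
mmu-miR-15b-5p: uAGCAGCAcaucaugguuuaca
mmu-miR-16-5p: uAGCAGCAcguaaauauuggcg
mmu-miR-153-3p: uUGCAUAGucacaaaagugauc
mmu-miR-487b-5p: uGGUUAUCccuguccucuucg
A mature sequence was found for 49 of the 52 genes. Among the 14 called genes, 1 seed was shared between called genes, AGCAGCA of Mir15b and Mir16-1. Other seeds were shared by a called and an uncalled gene. Examples, with the called gene first, were GGAAGAC of Mir7-1 and Mir7b, GUAAACA of Mir30c-1 and Mir30e, and CUCUGGG of Mir326 and Mir330.

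Mir132, whose microRNA is induced by neuronal activity, had rates of 31.8 after 20 min and 1.81 after 60 min in wild-type neurons, and 25.01 and 5.24 in Fmr1-KO neurons (log2 ratio -3.20, SE 0.475). Mir7-1 had rates of 33.2 and 6.63 in wild-type neurons and 35.2 and 3.57 in Fmr1-KO neurons (log2 ratio -2.81, SE 0.311). Mir15b had rates of 5.88 and 0.600 in wild-type neurons and 2.43 and 1.11 in Fmr1-KO neurons, and Mir16-1 had 7.10 and 2.29 in wild-type neurons and 12.3 and 6.05 in Fmr1-KO neurons. In Mir15b and Mir16-1, both 60 min libraries lay below both 20 min libraries. In the other direction, Mir153 had rates of 7.32 and 17.0 in wild-type neurons and 2.79 and 34.8 in Fmr1-KO neurons (log2 ratio 2.43, SE 0.586). Mir487b had rates of 1.90 and 7.86 in wild-type neurons and 4.69 and 15.01 in Fmr1-KO neurons. Mir300 and Mir326 were higher too. The rates belong to the gene entries, of which 40 of 52 lie inside another gene on the same strand, and not to a mature arm.

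Genes of the translation machinery and of mitochondria were compared list by list. Cytosolic ribosomal proteins build the ribosome, and 8 of 27 (29.6%) were lower at 60 min with 0 higher, against 16.2% lower and 9.13% higher over all genes. Their median log2 ratio was -0.83 in wild-type neurons and -0.72 in Fmr1-KO neurons. Rps24 had rates of 4.31 and 1.46 in wild-type neurons and 6.10 and 1.08 in Fmr1-KO neurons (log2 ratio -2.03, SE 0.303). Rpl36 had rates of 4.54 and 1.20 in wild-type neurons and 2.31 and 0.783 in Fmr1-KO neurons (log2 ratio -1.74, SE 0.235). Rpl37, Rps25, Rpl23, Rpl10, Rpl35 and Rpl18 were the other 6. The 3 members with the highest rates, Rps14, Rpl32 and Rpl9, were not called, with log2 ratios of -0.40, -0.50 and -0.67.

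Oxidative phosphorylation genes encode the respiratory chain and ATP synthase. Of 33, 9 (27.3% against 16.2% of all genes) were lower at 60 min and 0 higher, with a median log2 ratio of -0.52 in wild-type neurons and -0.76 in Fmr1-KO neurons. The complex I gene Ndufv1 had rates of 3.55 and 0.730 in wild-type neurons and 2.17 and 0.904 in Fmr1-KO neurons (log2 ratio -1.77, SE 0.317). Atp5e, of ATP synthase, had rates of 6.73 and 3.59 in wild-type neurons and 6.48 and 2.53 in Fmr1-KO neurons (log2 ratio -1.13, SE 0.242). The others were Ndufa3, Ndufa10, Ndufa11 and Ndufa13 of complex I, Uqcrq of complex III, Cycs (cytochrome c) and Cox7a2 of complex IV. Sdhd of complex II was not called, with rates of 3.27 and 4.83 in wild-type neurons and 2.94 and 4.31 in Fmr1-KO neurons. Mitochondrial ribosomal proteins gave 4 lower calls of 42 and 0 higher, and that share of lower calls (9.52%) was under the 16.2% of all genes. Of 14 tRNA synthetases 4 (28.6%) were lower and 0 higher. Of 30 translation initiation and elongation factors 2 (6.67%) were lower and 1 (3.33%) higher, both under the shares of all genes, with a median log2 ratio of -0.08 that became 0.00064 when each library was centred.

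Zinc finger genes of the Zfp series, mostly DNA-binding repressors, lay on the other side. Of 148, 32 (21.6%) were higher at 60 min against 9.13% of all genes, and 3 (2.03%) were lower. Their median log2 ratio was 0.62 in wild-type neurons and 0.44 in Fmr1-KO neurons, and 98 were above 0 in both genotypes. Zfp212 had rates of 0.926 and 3.18 in wild-type neurons and 1.06 and 3.18 in Fmr1-KO neurons (log2 ratio 1.68, SE 0.225). Zfp142 had rates of 1.14 and 3.27 in wild-type neurons and 1.17 and 3.53 in Fmr1-KO neurons (log2 ratio 1.56, SE 0.221). Zfp507 had rates of 0.956 and 2.48 in wild-type neurons and 0.907 and 2.45 in Fmr1-KO neurons (log2 ratio 1.41, SE 0.221). In each of these, both 60 min libraries lay above both 20 min libraries. The lower calls were Zfp414, Zfp511 and Zfp653.

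Chromatin regulators were more often higher. Of 42, 9 (21.4% against 9.13% of all genes) were higher at 60 min and 3 (7.14% against 16.2%) lower, with a median log2 ratio of 0.33 in wild-type neurons and 0.36 in Fmr1-KO neurons. Kdm5b, which removes methyl groups from histone H3 lysine, had rates of 2.08 and 6.82 in wild-type neurons and 2.005 and 6.27 in Fmr1-KO neurons (log2 ratio 1.68, SE 0.221). Ep300, a histone acetyltransferase, had rates of 1.93 and 5.26 in wild-type neurons and 2.003 and 4.50 in Fmr1-KO neurons (log2 ratio 1.31, SE 0.229). Tet3, which oxidises methylated cytosine, had rates of 3.05 and 7.68 in wild-type neurons and 3.20 and 6.96 in Fmr1-KO neurons (log2 ratio 1.23, SE 0.226). Chd1, Smarca5, Hdac4, Kdm2a, Kdm6b and Brd1 were the other higher calls. Kmt2d, Smarcd3 and Ezh1 were lower.

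Genes with short-lived messages and genes induced by neuronal activity were also compared. Of 22 short-lived mRNA regulators, 6 (27.3% against 9.13% of all genes) were higher at 60 min and 0 lower, with a median log2 ratio of 0.56 in wild-type neurons and 0.46 in Fmr1-KO neurons. They were Sgk1, Mdm2 (the ubiquitin ligase of p53), Kdm6b, Plk3, Socs5 and Mycn. Mycn had rates of 23.3 and 41.8 in wild-type neurons and 15.2 and 29.8 in Fmr1-KO neurons (log2 ratio 0.91, SE 0.223). Of 19 immediate-early and activity genes, 5 (26.3% against 9.13%) were higher and 1 (5.26% against 16.2%) was lower. The nuclear receptor gene Nr4a3 had rates of 8.61 and 21.7 in wild-type neurons and 8.09 and 21.3 in Fmr1-KO neurons (log2 ratio 1.37, SE 0.221), and Nr4a2, Sik1, Per1 and Fosl2 were higher as well. Ier2 was lower, at 11.5 and 4.73 in wild-type neurons and 14.05 and 3.71 in Fmr1-KO neurons (log2 ratio -1.60, SE 0.263). Junb and Jun, subunits of AP-1, were not called, with log2 ratios of -0.70 and -0.27.

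Ion channel genes gave more lower than higher calls, as all genes did. Of 79, 21 (26.6% against 16.2% of all genes) were lower at 60 min and 3 (3.80% against 9.13%) were higher, with a median log2 ratio of -0.23 in wild-type neurons and -0.36 in Fmr1-KO neurons. The median of the mean ratio, -0.31, was -0.17 after quantile normalization and -0.077 without the lowest rates. The calls took in pore subunits of voltage-gated calcium channels. Cacna1a had rates of 2.61 and 0.644 in wild-type neurons and 2.46 and 0.492 in Fmr1-KO neurons (log2 ratio -2.17, SE 0.231). Cacna1b had rates of 2.08 and 0.601 in wild-type neurons and 2.01 and 0.508 in Fmr1-KO neurons (log2 ratio -1.89, SE 0.225). Cacna1d, Cacna1e and Cacna1g were lower too, as were the auxiliary subunits Cacna2d2, Cacna2d3, Cacnb3 and Cacng7, while Cacnb2 and Cacng5 were higher. Potassium channel genes with a lower call included Kcnt1, Kcnh3, Kcnma1, Kcnip1 and Kcnk9, and Kcnk10 had a higher call.

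Of 11 messages known as bound by FMRP in published crosslinking work, a short and incomplete list, 6 (54.5% against 16.2% of all genes) were lower at 60 min and 1 (9.09% against 9.13%) was higher. The list was not matched to other genes for GC content or exon number. Of 586 protein-coding genes in the terciles of highest GC and most exons, 46.1% were lower. Whether the share is a trait of FMRP-bound messages was not tested. The median log2 ratio was -0.71 in wild-type neurons and -1.02 in Fmr1-KO neurons, below 0 in both. The lower genes were Cacna1a, which is also counted among the ion channels, Tsc2, Dst, Shank2, Mtor and Herc1. Tsc2, which restrains the growth kinase mTOR, had rates of 1.13 and 0.267 in wild-type neurons and 1.15 and 0.269 in Fmr1-KO neurons (log2 ratio -2.09, SE 0.221). Dst, a giant linker of the cytoskeleton, had rates of 1.84 and 0.612 in wild-type neurons and 1.76 and 0.467 in Fmr1-KO neurons (log2 ratio -1.75, SE 0.232). Spen, a transcriptional repressor, was higher, with 1.45 and 3.04 in wild-type neurons and 1.49 and 2.59 in Fmr1-KO neurons.

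The remaining lists stand beside 16.2% lower and 9.13% higher over all genes. Splicing factors gave 9 lower (16.7%) and 4 higher (7.41%) calls of 54, long synaptic and adhesion genes 3 and 3 of 29 (10.3% each), and cell-cycle genes 2 (6.67%) and 1 (3.33%) of 30. Synaptic vesicle genes gave 4 lower (36.4%) and 0 higher of 11. Auts2, a regulator of neuronal development, was among the higher calls, at 2.43 and 6.59 in wild-type neurons and 2.64 and 5.04 in Fmr1-KO neurons, and Nrxn3, a presynaptic adhesion gene, was among the lower, at 1.64 and 0.910 in wild-type neurons and 2.10 and 0.828 in Fmr1-KO neurons. Proteasome subunits (1 higher and 2 lower of 11) and chaperones (1 and 1 of 35) had medians of the mean ratio within 0.05 of 0 that changed sign when libraries were centred. Of 4 hosts of small nucleolar RNAs, Dancr and Snhg8 were lower, with Dancr at 4.93 and 1.13 in wild-type neurons and 4.04 and 1.04 in Fmr1-KO neurons. Of 5 listed long non-coding RNAs 0 were called by limma, and of 3 tubulin and neurofilament genes Tubgcp2 was lower. Over 53 genes annotated as long non-coding, 17 (32.1%) were lower and 2 (3.77%) higher. Quantile normalization moved the median over all genes by 0.10 on the log2 scale. Relative to that median, the histone list lay at -1.43 as deposited and -1.47 after quantile normalization, ribosomal proteins at -0.72 and -0.88, FMRP-bound messages at -0.86 and -0.87, and Zfp genes at 0.58 and 0.50.

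**Figure D3:**
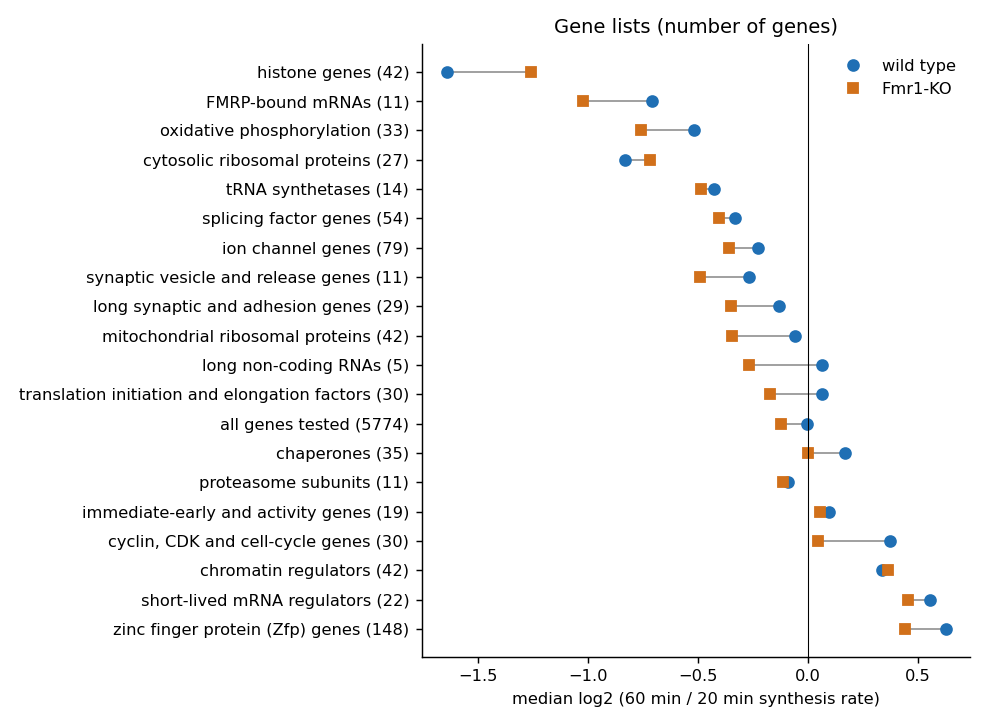
Median log2 ratio of the 60 min over the 20 min synthesis rate for each list of at least 5 genes made from symbols and for all genes, without the classes taken from the annotation, in wild type (circles) and Fmr1-KO (squares), with the number of genes in brackets. Among these lists histone genes lie lowest, at -1.64 and -1.26, and Zfp genes highest in wild type, at 0.62. For chaperones, proteasome subunits and translation factors the median of the mean ratio, which is not drawn, changes sign when libraries are centred. For cell-cycle genes it changes sign without the lowest rates.

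The ratio followed the make-up of the transcript. Among 5605 protein-coding genes, the decile with the lowest GC content (median 40.6%) had 10.9% of genes higher and 3.39% lower at 60 min. The decile with the highest GC content (median 60.4%) had 5.70% higher and 34.8% lower. Uridine is the base that 5-EU replaces: the decile poorest in U had 36.7% of genes lower and 3.21% higher, and the decile richest in U had 3.74% lower and 13.0% higher. Across these genes, Spearman rho with the mean ratio was -0.278 for GC and 0.301 for U. GC and U content are not independent of each other, and genes are not independent replicates.

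Among the measures of length, that of the 3′ untranslated region had the largest rho. The decile of genes with the shortest 3′ untranslated regions (median 85 bases) had 29.9% lower and 3.92% higher calls. The decile with the longest (median 5000 bases) had 4.46% lower and 16.2% higher, with rho 0.299 across genes. Exon number went the other way, with 34.8% of genes lower and 3.92% higher in the top decile (median 30 exons) and rho -0.188. The length of the coding sequence had a rho of 0.025, and gene span a rho of 0.119. Higher calls had a median of 9 exons and a 3′ untranslated region of 1924 bases, lower calls 14 exons and 621 bases, and genes not called 9 exons and 1288 bases. The mean synthesis rate itself had a rho of 0.275 with the ratio, and its part in these trends was not tested.

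**Figure D4:**
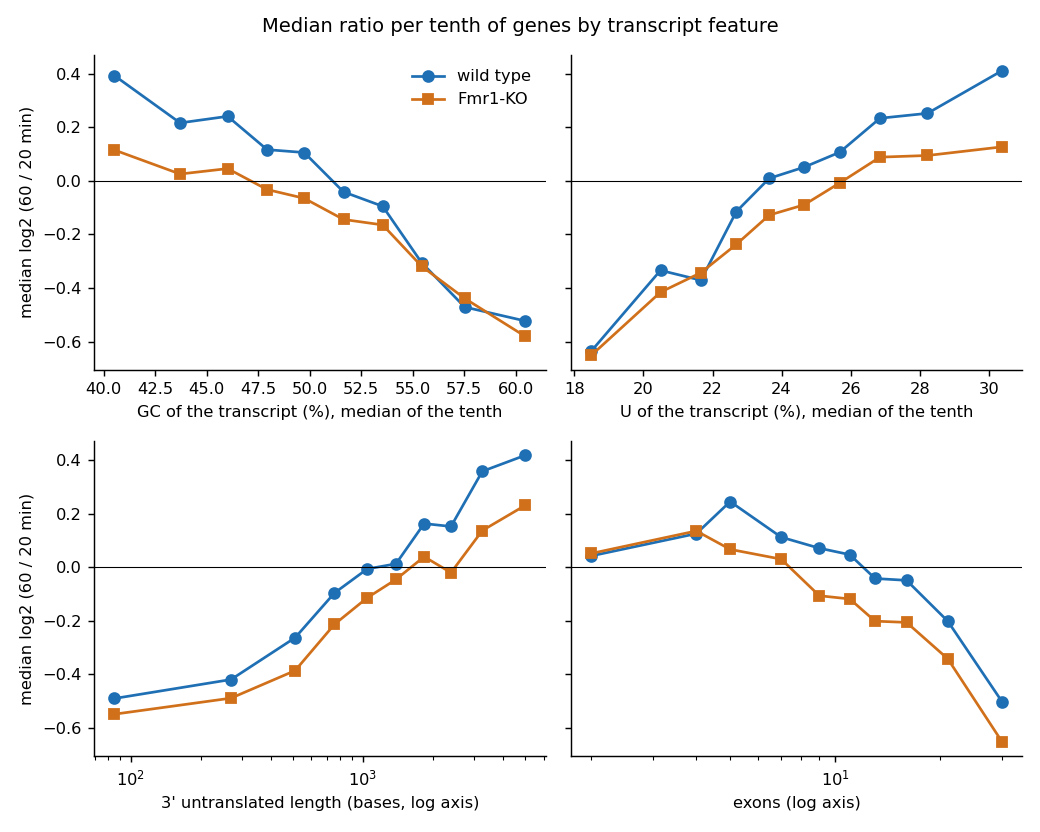
Median log2 ratio of the 60 min over the 20 min synthesis rate in each decile of genes, against the median GC content, U content, length of the 3′ untranslated region or exon number of that decile, in wild type (circles) and Fmr1-KO (squares). GC and U panels hold all 5724 genes with a transcript in the annotation and the lower panels the 5605 protein-coding genes; the medians fall with GC and with many exons and rise with U and with length of the 3′ untranslated region in both genotypes.

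GC content and exon number were then crossed, in terciles of the protein-coding genes. With GC under 47.7% and fewest exons, 4.63% of 713 genes were lower at 60 min. With GC above 53.9% and most exons, 46.1% of 586 genes were lower, and 4.61% were higher. Within the highest tercile of GC, lower calls went from 16.8% with fewest exons through 26.4% to 46.1% with most. Within the lowest tercile of GC they went from 4.63% through 6.51% to 8.25%. Higher calls stayed between 4.61% and 12.8% in all 9 groups. 

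**Figure D5:**
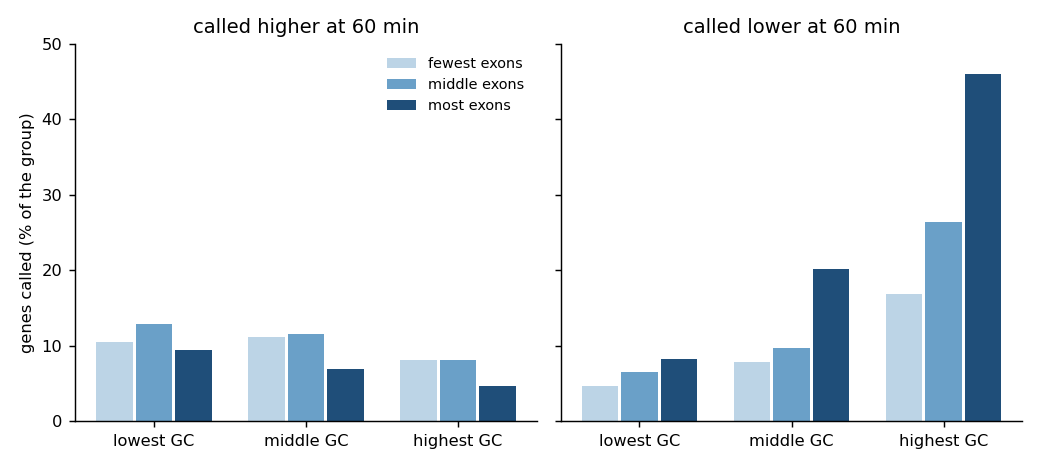
Percentage of protein-coding genes called higher (left) or lower (right) at 60 min by limma, by tercile of transcript GC content (x axis) and of exon number (shade), with 538 to 726 genes per bar. Lower calls reach 46.1% in the group of highest GC and most exons and 4.63% in that of lowest GC and fewest exons, while higher calls stay between 4.61% and 12.8%.

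Processing and degradation rates are no independent measure of these differences. In wild type, the 60 over 20 min ratio of the processing rate equalled that of the synthesis rate within 0.001 on the log2 scale in 5069 of 5069 genes, and the ratio of the degradation rate did so in 5378 of 5774 (93.1%). In the knockout this held for 305 of 5069 genes (6.02%) and 15 of 5685 (0.264%), where rho between the degradation and synthesis ratios was 0.899. For the histone list, the median degradation rate was 0.362 after 20 min and 0.110 after 60 min in wild-type neurons, and 0.334 and 0.169 over the 36 genes with such rates in the knockout.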

How the data were processed

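Neuronal RNA was labelled with 5-EU for 20 or 60 min, pulled down and sequenced. Synthesis, processing and degradation rates were deposited by the authors as linear values in 1 table (other units: no time unit is stated), named for INSPEcT, which models new and total RNA. The submitters' processing notes name cutadapt, Bowtie2, TopHat2, HISAT2, limma and the builds mm10, dm6 and sacCer3, with no roles. How spike-ins and strand were used is not given in the sources used here. The authors' deposited knockout tables were not used, and 0 columns of per-sample values were left out.

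Log2 synthesis rates, without a pseudocount, were fitted with limma 3.58.1 (R 4.3.3; lmFit, eBayes without trend), with time as the term and genotype as the replicate block, two-sided, Benjamini-Hochberg adjusted over 5774 genes at 0.05. The fit was tested on simulated data. Members, lists and alternatives were chosen with earlier results of these data known. The block follows the study's comparison within genotypes; same-genotype libraries deviated together with rho 0.202 across genes. Alternatives were no block, centring, quantile normalization, a low-rate filter, a pseudocount, other eBayes settings, a threshold of 0.01, genes with all 12 rates, a 2-fold rule and leaving out libraries.

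Named genes were, among those above the 25th percentile of mean log2 rate with the same sign in both genotypes, the 12 highest and 12 lowest calls by the smaller absolute ratio; 3 genes of opposite sign in each direction; Fmr1; and the 3 highest rates per list. Predicted genes were passed over. Other calls inside lists were named after their values were seen. Transcript features came from GENCODE M21 (GRCm38), taking per gene the transcript whose coding part was longest (the longest transcript where none codes), matched by symbol for 5724 genes (99.1%). Figures used Python 3.11.15 and matplotlib 3.10.9.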

Additional observations from a re-analysis of the deposited data

Results flagged for a closer look

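In 6 genes chosen for it, the wild-type and the Fmr1-KO ratios of the 60 over the 20 min synthesis rate went in opposite directions, and with 1 pair per genotype the difference was not tested. Cox20, an assembly factor of cytochrome oxidase, had a log2 ratio of 1.65 in wild-type neurons and -1.52 in Fmr1-KO neurons, from rates of 0.685 and 2.15 in wild-type neurons and 3.97 and 1.39 in Fmr1-KO neurons. Pigf, of the GPI anchor pathway, had 2.53 and -1.16, and Churc1 had 1.53 and -0.98. In the reverse direction, the mitochondrial ribosomal gene Mrps18c had -1.58 in wild-type neurons and 1.11 in Fmr1-KO neurons, the prohibitin gene Phb had -1.08 and 1.41, and the lysine methyltransferase gene Vcpkmt had -1.38 and 0.98. Over all genes, 1225 of 5774 had ratios of opposite sign.

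The 60 min libraries of these genes, chosen for opposite ratios, lay closer together than the 20 min ones. Over all genes the genotypes also ranked more alike at 60 min (rho 0.973) than at 20 min (rho 0.883). Cox20 was at 2.15 and 1.39 at 60 min, against 0.685 and 3.97 at 20 min, and Pigf was at 0.905 and 0.717 against 0.157 and 1.60.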

How the results depend on the processing

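The paired fit, with genotype as the block, gave 527 higher and 935 lower calls. Without the block 524 genes were higher and 893 lower, 467 and 833 of them shared with the paired fit, and 3 of the 40 named calls were lost. Centring gave 665 and 818, quantile normalization 366 and 500 with 4 named calls lost, robust eBayes 516 and 918, and genes with all 12 rates 538 and 852. Without rates at or under the 25th percentile 817 genes were higher and 840 lower, with 50.7% of calls lower against 64.0%. A pseudocount of 0.332 gave 875 higher and 1122 lower calls, and a trend 917 and 1123. At 0.01, 0 were called by limma, with 2559 at an unadjusted p under 0.05. At least 2-fold in both genotypes were 243 higher (4.21%) and 605 lower (10.5%). Leaving out 1 library in a fit without the block gave 0 to 1104 higher and 0 to 1339 lower calls. That setting was chosen after the data were seen; without the Fmr1-KO 60 min library all 40 named calls lost significance, and without the wild-type one 28 did, with the direction of all 40 kept in both, and 1 was lost without either 20 min library. The kept direction was largely set by the choice of named calls, which had the same sign in both genotypes. Without the wild-type 20 min library the fit without the block turned Cox20 to -1.20, Pigf to -0.99 and Churc1 to -0.99, from 0.066, 0.68 and 0.27. Over all single libraries left out, with and without the block, these genes ranged from -1.52 to 1.65, -1.16 to 2.53 and -0.99 to 1.54. With the block, such a fit gives the ratio of the other genotype alone.

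The median ratio over genes was -0.07, 0.0355 after quantile normalization and 0.0405 without those low rates. In the same way, the list of immediate-early genes (0.14) moved to 0.23 with centring, 0.10 with quantile normalization and 0.053 to 0.095 with a library left out. For lists, a library was left out of the paired fit, which leaves the pair of the other genotype alone. Such values are therefore the single-genotype medians and no separate check. Short-lived regulators (0.48) moved to 0.56 with centring and to 0.46 to 0.56 with a library left out. Centring moved ribosomal proteins (-0.78) to -0.70, splicing factors (-0.38) to -0.29, proteasome subunits (-0.025) to 0.060, tRNA synthetases (-0.38) to -0.29 and chromatin regulators (0.32) to 0.40. Quantile normalization moved ion channels (-0.31) to -0.17, proteasome subunits to -0.14, tRNA synthetases to -0.48 and chromatin regulators to 0.38. The low-rate filter moved ion channels to -0.077, splicing factors to -0.30, cell-cycle genes (0.26) to -0.027 and chromatin regulators to 0.35. The pseudocount moved ribosomal proteins to -0.68, oxidative phosphorylation (-0.79) to -0.61, splicing factors to -0.32 and chromatin regulators to 0.26. With a library left out, oxidative phosphorylation lay at -0.76 to -0.52, long synaptic genes (-0.30) at -0.35 to -0.13, proteasome subunits at -0.11 to -0.093, tRNA synthetases at -0.49 to -0.43, chaperones (-0.05) at -0.0020 to 0.17, chromatin regulators at 0.33 to 0.36 and synaptic vesicle genes (-0.30) at -0.49 to -0.27. The cause of these moves was not tested. The difference between the deciles of longest and shortest gene span was 0.37, 0.30 in protein-coding genes and 0.75 by spliced length. With 1 library per genotype and time and unknown depth, the error of a single rate cannot be given.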

Other observations

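Families that share a symbol stem were compared over the 33 stems with at least 15 genes, a description chosen after the data were seen, beside 9.13% higher and 16.2% lower over all genes. Zbtb genes, which encode zinc finger repressors with a BTB domain, had the highest median of the mean ratio (0.80), with 7 higher and 0 lower calls of 23 and a median log2 ratio of 0.87 in wild-type neurons and 0.59 in Fmr1-KO neurons. Klhl genes, adaptors of cullin ubiquitin ligases, had 5 higher and 1 lower of 17 (0.57 and 0.60), and Rnf genes, mostly ubiquitin ligases, had 7 and 2 of 43 (0.49 and 0.25). Deubiquitinases of the Usp stem had 5 and 4 of 31. On the other side, Pcdhb genes, clustered protocadherins of neuronal identity, had 2 lower (13.3%, under the share of all genes) and 0 higher calls of 15, with 13 below 0 in both genotypes (medians -0.49 and -0.65). Atp genes, which include ion pumps and ATP synthase, had 7 lower and 1 higher of 22.

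AI450353 had the most extreme ratio, with rates of 173 after 20 min and 0.186 after 60 min in wild-type neurons and 1.18 and 0.296 in Fmr1-KO neurons (log2 ratio -9.87 in wild-type neurons and -1.99 in Fmr1-KO neurons); it was not called, with a limma adjusted p of 0.0661. Myl6b was lowest of the protein-coding genes in the knockout, at 0.929 and 0.0779, with 0.903 and 0.123 in wild type.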
